A study of Rattus norvegicus with 12 samples.

Results

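The mitochondrial ribosomal proteins described here are 73 genes of the 14217 genes that a probe set with a single symbol measured on these arrays. They were chosen by name alone: every probe set with exactly 1 annotated symbol that starts with Mrpl or Mrps followed by a digit was taken, which gave 97 probe sets, and a gene with several was represented by the probe set with the highest mean over the 12 arrays. By name 46 genes are Mrpl and 27 are Mrps, but the products of Mrps18a and Mrps30 sit in the large subunit, so that 48 members belong to the large and 25 to the small subunit. RNA of the liver and of the renal cortex, the outer part of the kidney, was hybridised to Affymetrix Rat Genome 230 2.0 arrays. It came from male rats aged 7 to 9 weeks, whose strain the labels give as F-344 (Wistar-derived). The TCE group is 3 rats given trichloroethylene (TCE, a chlorinated solvent) by mouth at 16 mg/kg a day for 3 days in corn oil at 5 ml/kg. The control group is 3 rats given the corn oil alone, and every rat was killed 24 hours after the last dose. Each of the 4 groups (TCE liver, control liver, TCE kidney and control kidney) has 3 arrays, 1 a rat. Both tissues came from the same 6 rats, but no label ties the liver array of a rat to its kidney array, so comparisons between the tissues treat the arrays as independent.

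Mitochondria carry their own ribosome, which makes a small set of membrane proteins of the respiratory chain from messages of the mitochondrial genome. Its RNA is encoded in the mitochondrion, whereas all of its proteins are encoded in the nucleus, made in the cytosol and imported. Many of them have a counterpart in bacterial ribosomes, and the others are found in mitochondria and not in bacteria. Here 42 members have such a counterpart and 31 have none. Proximal tubule cells of the renal cortex and hepatocytes are both rich in mitochondria.

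All 73 members passed the filter on dim probe sets in each comparison. Their values, on the deposited log2 scale, lay between 6.81 and 13.11 on any array, and 72 of 73 had a mean over 8, against 36.9% of all genes. A probe set's brightness also depends on its probes, so levels are compared between arrays and not between genes. The median over members was 10.22, 10.30 and 10.34 on the TCE liver arrays and 10.26, 10.24 and 10.17 on the control liver arrays. It was 10.18, 10.24 and 10.12 on the TCE kidney arrays and 10.22, 10.16 and 10.15 on the control kidney arrays. The groups therefore overlapped in this median. Replicates lay close together: the median SD over members (n = 3) was 0.09 in TCE liver, 0.10 in control liver, 0.09 in TCE kidney and 0.09 in control kidney, where all genes had 0.15, 0.15, 0.13 and 0.13. The tissue labels matched their markers: the 12 hepatocyte markers all averaged over 8 in liver, and the 10 proximal tubule markers all did in kidney. The summed hepatocyte markers reached 13.69 to 14.66 on the log2 scale in kidney, against 18.84 to 18.90 in liver. In whole tissue, fewer cells of a type and less RNA per cell cannot be told apart.

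The first comparison asked how the members differ between liver and kidney cortex. About 3 in 5 members differed, in both directions. In TCE rats 45 of 73 passed an adjusted p of 0.05 (limma with Benjamini-Hochberg adjustment over all genes), 24 higher and 21 lower in liver. In control rats 43 of 73 passed, 25 higher and 18 lower in liver. These shares are to be read against all genes tested, of which 67.6% were called in TCE rats (30.8% higher, 36.8% lower) and 68.6% in control rats (29.7% higher, 38.9% lower): the members were called no more often than genes at large. The median liver minus kidney difference over members was 0.05 in TCE rats and 0.08 in control rats, where all genes had -0.05 and -0.10.

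Most members differed little. Only Mrps6, Mrpl14 and Mrps25 differed by over 1 log2 unit in TCE rats, and only Mrps6, Mrps18c, Mrpl14 and Mrpl12 in control rats. Over 39% of all genes did so in each. The same 35 members were called in the same direction in both sets of rats, 21 higher and 14 lower in liver, and 0 were called in opposite directions. Of all genes 58.6% were called in both and in the same direction. The 35 are 77.8% of the members called in TCE rats and 81.4% of those called in control rats, and the 2 sets of rats share no array. For all genes, the 6188 stand against 7194 called in TCE rats and 7309 in control rats. The calls of members were therefore shared no more often than those of genes at large. The plot of tissue differences shows every member in both.

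**Figure D1:**
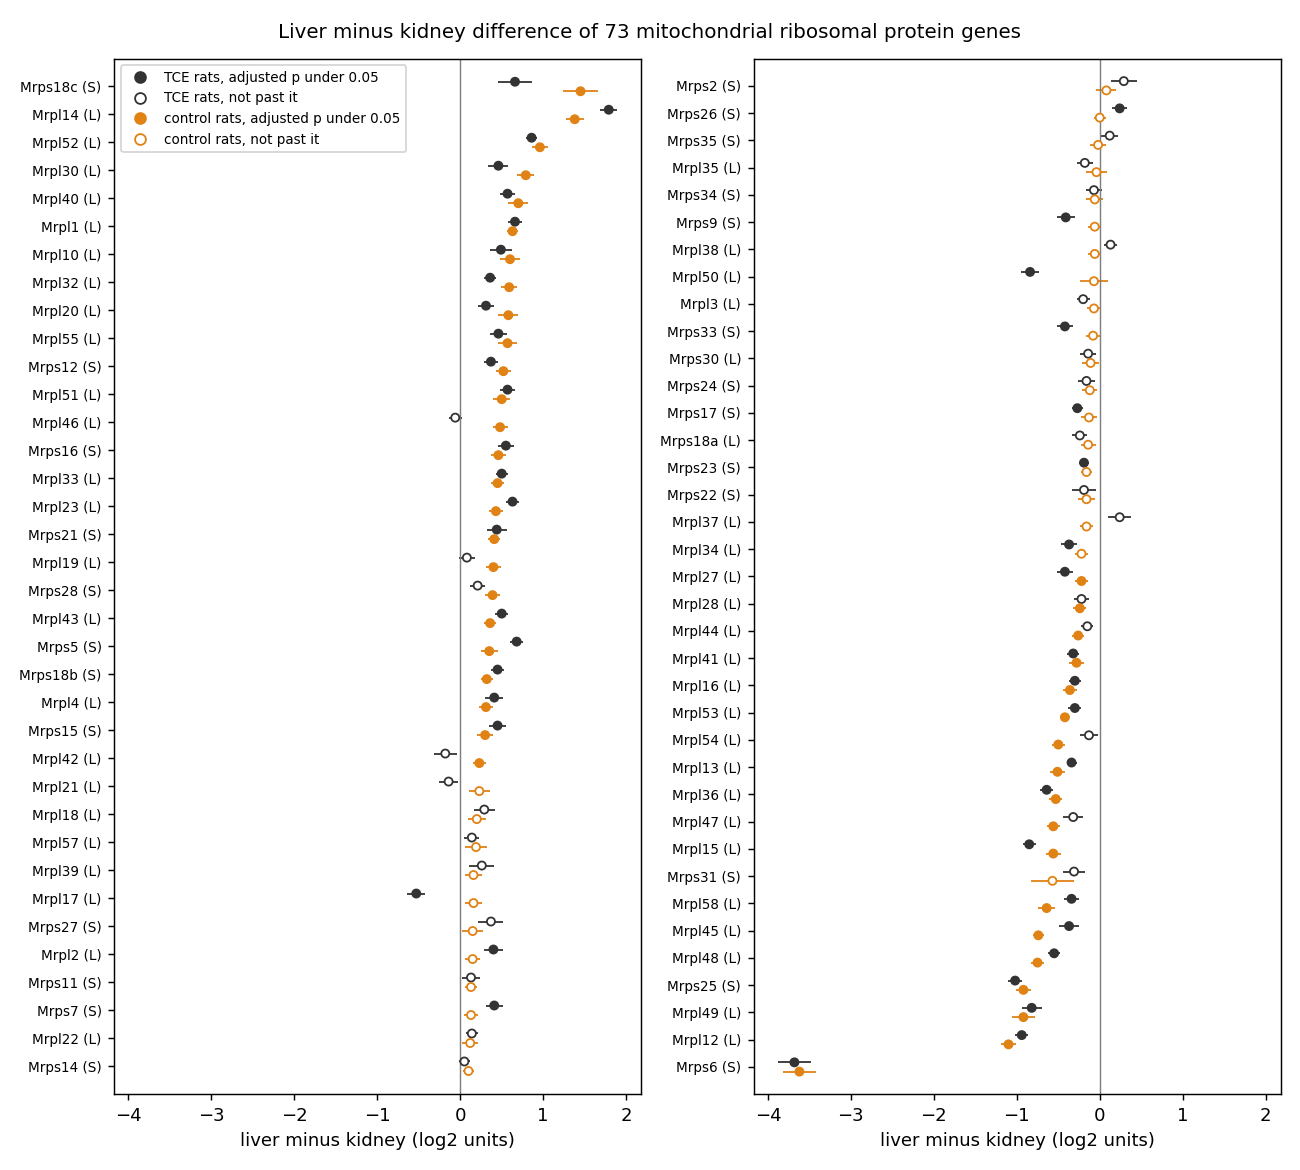
Liver minus kidney difference (x axis, log2 units) of the 73 members, in rows ordered by the difference in control rats, with L for large and S for small subunit. Points are limma estimates from 3 against 3 arrays in TCE rats (dark) and control rats (orange), bars are standard errors, and filled points passed an adjusted p of 0.05; Mrps6 lies far to the left at -3.68 and -3.62.

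By subunit, 30 of 48 large-subunit members were called in TCE rats (15 higher, 15 lower) and 33 of 48 in control rats (17 higher, 16 lower). Of the small subunit, 15 of 25 were called in TCE rats (9 higher, 6 lower) and 10 of 25 in control rats (8 higher, 2 lower). Members with a bacterial counterpart had a median difference of 0.17 in TCE rats and 0.16 in control rats. Those without one had -0.14 in TCE rats and -0.08 in control rats. Whether these classes differ was not tested.

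The member furthest from the others was Mrps6, which encodes the small-subunit protein bS6m. In bacteria S6 pairs with S18 on the platform of the small subunit. In TCE rats it had 8.80, 8.80 and 8.86 log2 units in liver and 12.53, 12.09 and 12.87 in kidney. In control rats it had 9.04, 9.13 and 9.01 in liver and 13.11, 12.36 and 12.58 in kidney. Every kidney array was far above every liver array. Mrps6 was 12.8-fold lower in liver in TCE rats (log2 difference -3.68 ± 0.20 SE, limma adjusted p = 1.74e-05) and 12.3-fold lower in control rats (-3.62 ± 0.20, adjusted p = 2.02e-05).

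In the RefSeq table the gene Slc5a3, for a sodium-coupled myo-inositol transporter used in osmotic balance, lies within the span of Mrps6. Slc5a3 was looked up after the Mrps6 values had been seen. It had 5.27, 5.03 and 5.77 log2 units in liver and 11.17, 10.33 and 11.39 in kidney of TCE rats. It had 4.90, 4.72 and 5.42 in liver and 11.20, 10.55 and 11.30 in kidney of control rats. Its liver minus kidney difference was -5.61 ± 0.33 in TCE rats and -6.00 ± 0.27 in control rats. Whether the Mrps6 probe set also detects transcripts of Slc5a3 was not tested.

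The next largest deficit in liver in control rats was that of Mrpl12 (in TCE rats that of Mrps25 was larger), whose product forms the stalk that recruits translation factors and is reported, in human cells, to bind the mitochondrial RNA polymerase. It had 11.52, 11.62 and 11.55 log2 units in liver and 12.45, 12.61 and 12.44 in kidney of TCE rats. It had 11.39, 11.33 and 11.48 in liver and 12.58, 12.38 and 12.53 in kidney of control rats. No liver array reached a kidney array. The difference was -0.94 ± 0.08 in TCE rats (adjusted p = 0.000133) and -1.10 ± 0.09 in control rats (9.89e-05). Its second, dim probe set pointed the same way, at -0.77 and -0.94.

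In the other direction Mrps18c and Mrpl14 were the furthest in control rats. In TCE rats Mrpl14 was the furthest, and Mrpl52 and Mrps5 lay above Mrps18c. Mrps18c encodes the small-subunit counterpart of bacterial S18, the partner of S6. In TCE rats it had 10.25, 10.41 and 10.53 log2 units in liver and 9.98, 9.31 and 9.92 in kidney. In control rats it had 10.51, 10.24 and 10.82 in liver and 8.82, 9.01 and 9.41 in kidney. The groups did not overlap, though they were wider apart in control rats. Its difference was 0.66 ± 0.20 in TCE rats (adjusted p = 0.0266) and 1.45 ± 0.21 in control rats (0.00137). The call in TCE rats was lost without TCE liver replicate 2 (adjusted p = 0.0708) or replicate 3 (0.0824), and when dim probe sets were kept (0.065). Averaging the probe sets of the gene gave 0.04 in TCE rats (adjusted p = 0.633). A second Mrps18c probe set, at 6.55 to 7.32, pointed the other way, with -0.54 in TCE rats and -0.30 in control rats, so the direction for the gene depends on the probe set.

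Mrpl14 encodes uL14m, which faces the small subunit. It had 10.37, 10.44 and 10.12 log2 units in liver and 8.51, 8.47 and 8.58 in kidney of TCE rats. It had 9.83, 10.17 and 10.06 in liver and 8.71, 8.69 and 8.53 in kidney of control rats. It was 3.46-fold higher in liver in TCE rats (1.79 ± 0.10, adjusted p = 2.32e-05) and 2.6-fold higher in control rats (1.38 ± 0.11, 0.000115). It has 1 probe set, and in the RefSeq table its span overlaps that of the protein-coding gene Tmem63b.

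**Figure D2:**
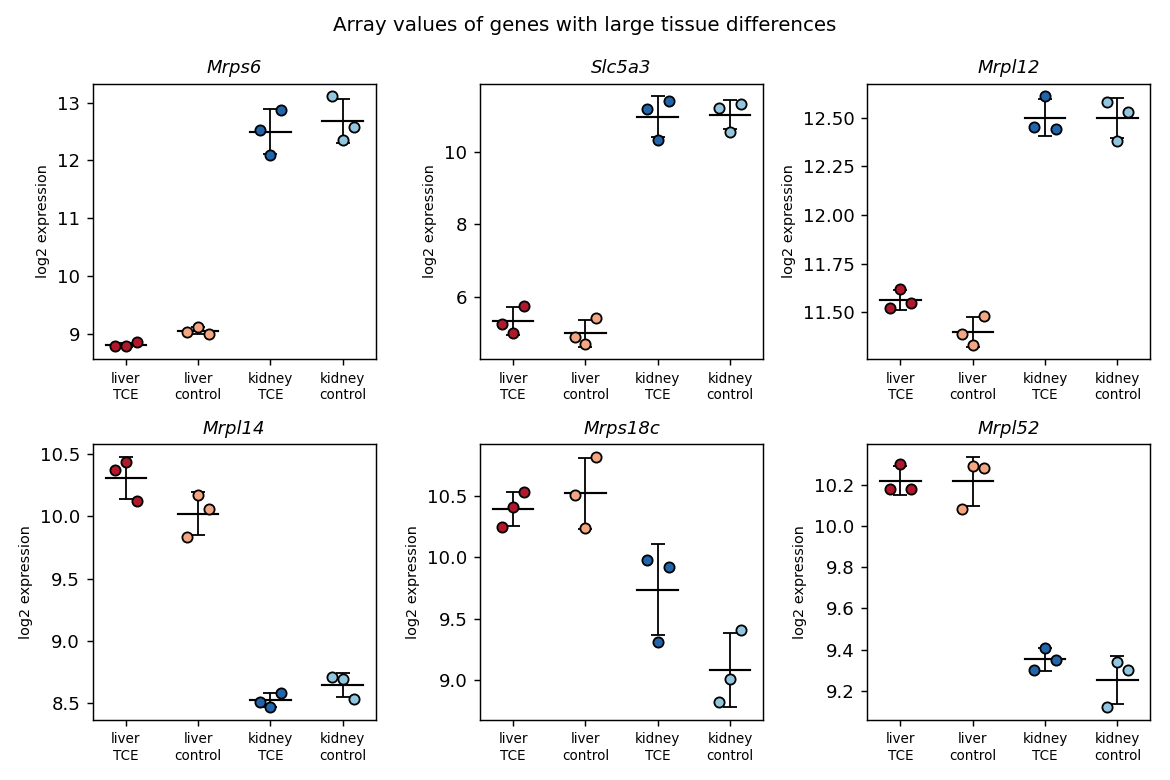
Log2 expression (y axis) of 6 genes on each array of TCE liver, control liver, TCE kidney and control kidney; points are arrays, and the horizontal line and bar are the mean and SD of 3. Mrps6, Slc5a3 and Mrpl12 are lower, and Mrpl14, Mrps18c and Mrpl52 higher, on every liver array than on the kidney arrays of the same treatment.

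The promoters of these 4 genes, the largest called differences in control rats in each direction, are shown because they are the regions in which shared regulatory letters would be looked for. Each runs from 250 bases before to 50 after the annotated start (RefSeq, build GRCr8, written 5′ to 3′ in the direction of the gene). Capitals mark a match to a searched motif. Mrps6 lies at chr11:44778417-44778716, plus strand, Mrpl12 at chr10:106256496-106256795, plus strand, Mrps18c at chr14:9122857-9123156, minus strand, and the first of the 2 listed starts of Mrpl14 at chr9:22811184-22811483, minus strand.
Mrps6: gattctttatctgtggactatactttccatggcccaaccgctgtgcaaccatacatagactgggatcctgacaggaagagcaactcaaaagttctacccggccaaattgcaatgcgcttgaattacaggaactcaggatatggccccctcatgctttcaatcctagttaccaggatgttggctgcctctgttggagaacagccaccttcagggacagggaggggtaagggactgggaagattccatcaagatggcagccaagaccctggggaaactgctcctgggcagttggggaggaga
Mrpl12: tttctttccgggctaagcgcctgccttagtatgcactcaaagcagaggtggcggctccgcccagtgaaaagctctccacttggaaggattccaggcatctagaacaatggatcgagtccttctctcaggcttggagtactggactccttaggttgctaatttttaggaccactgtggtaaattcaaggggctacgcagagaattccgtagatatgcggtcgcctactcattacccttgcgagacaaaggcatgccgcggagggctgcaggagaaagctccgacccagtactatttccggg
Mrps18c: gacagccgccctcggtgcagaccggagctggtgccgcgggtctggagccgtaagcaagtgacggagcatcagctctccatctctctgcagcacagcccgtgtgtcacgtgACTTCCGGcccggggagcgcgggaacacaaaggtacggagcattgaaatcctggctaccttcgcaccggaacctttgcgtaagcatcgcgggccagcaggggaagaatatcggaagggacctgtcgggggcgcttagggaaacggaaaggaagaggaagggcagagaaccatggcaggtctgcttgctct
Mrpl14: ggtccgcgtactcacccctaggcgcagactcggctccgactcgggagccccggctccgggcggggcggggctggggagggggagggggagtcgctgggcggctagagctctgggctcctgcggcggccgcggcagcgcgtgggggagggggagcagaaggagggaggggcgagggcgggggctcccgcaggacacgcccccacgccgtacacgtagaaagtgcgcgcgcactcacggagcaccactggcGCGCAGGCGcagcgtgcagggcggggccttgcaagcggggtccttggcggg

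The capitals in Mrps18c are the GABPA motif CCGGAAGT on the opposite strand, and those in Mrpl14 match the NRF1 motif GCGCANGCG. NRF1 and GABPA are transcription factors known for driving nuclear genes of mitochondria. The windows of Mrps6 and Mrpl12 hold none of the motifs searched. Promoters were listed for 59 of 73 members and were searched on both strands. The NRF1 motif was found in 11 of 59 (18.6%), against 11.5% of the 11700 genes on the array with a promoter and 6.46% of all 27457 genes with one. The GABPA motif was in 8 (13.6%), against 6.96% of genes on the array and 4.2% of all. The motif AAGATGGCG of YY1, another transcription factor, was in 8 (13.6%), against 3.2% of genes on the array and 1.99% of all. None of the motifs contains another, and 25 members held at least 1 of them. The NRF1 and YY1 letters were shortened by 1 base after a first search with longer ones, so their shares were not fixed beforehand. A match is a stretch of letters and not a shown binding site. The median GC content was 56% for members and 59.7% for genes on the array.

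Other members called lower in liver by the largest differences in control rats were as follows, with the value in TCE rats first. Mrps25, a small-subunit protein without a bacterial counterpart, had -1.02 ± 0.08 and -0.92 ± 0.09. Mrpl49 had -0.82 ± 0.12 and -0.92 ± 0.14, but its second probe set had -0.50 and -0.10. Mrpl48 had -0.55 and -0.75. Mrpl45, which in human mitochondria lies near the exit tunnel at the membrane, had -0.37 and -0.74. All of these were called in both sets of rats. Mrpl58, a peptidyl-tRNA hydrolase that rescues stalled ribosomes and is also built into the large subunit, had -0.34 and -0.64 and was called in both. Mrpl47 had -0.32 (adjusted p = 0.0524) and -0.56 (0.00119), so it was called in control rats and not in TCE rats. Mrpl15 had -0.85 and -0.56, and Mrpl36 had -0.64 and -0.53. Both were called in both sets of rats.

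Members called higher in liver in both sets of rats, again with TCE rats first, included Mrpl52, which has no bacterial counterpart, with 0.86 ± 0.07 and 0.96 ± 0.10. Mrpl30 had 0.46 and 0.79. Mrpl40 had 0.57 and 0.70, while its second, dim probe set had -0.79 and -1.16, and the mean of both gave -0.11 and -0.23. Mrpl1, of the stalk by which spent tRNA leaves, had 0.66 and 0.63. Mrpl10, the base on which the Mrpl12 stalk stands, had 0.49 and 0.60, while its second probe set had -0.36 and 0.61, and with the probe sets averaged it was not called in TCE rats. Mrpl32, which in mouse mitochondria is matured by the m-AAA protease, had 0.36 and 0.59. Mrpl20 had 0.31 and 0.58, and Mrpl55 had 0.46 and 0.57. In TCE rats the 10 largest higher calls also held Mrps5 (0.68), Mrpl23 (0.63), Mrpl51 (0.57), Mrps16 (0.55) and Mrpl43 (0.50). The other Mrpl51 probe sets had 0.90, 0.44 and -0.09 in TCE rats. In TCE rats the 10 largest lower calls also held Mrpl50 (-0.84), Mrpl17 (-0.53) and Mrps33 (-0.42). In control rats Mrpl50 had -0.07, Mrpl17 0.16 and Mrps33 -0.08, and these 3 were not called there.

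Of the Mrps18 family, 3 paralogues related to bacterial S18, Mrps18a had -0.24 in TCE rats (adjusted p = 0.0605) and -0.14 in control rats (0.228). Mrps18b had 0.45 and 0.32, called in both. Mrps18c, described above, was also called higher in both by the probe set used. Centring each array on its median gave Mrps18a 0.14 in TCE rats (adjusted p = 0.278) and 0.28 in control rats (0.0335). Mrps12, whose bacterial counterpart S12 sits at the decoding site and carries streptomycin resistance changes, had 0.37 in TCE rats and 0.52 in control rats, called in both. The symbol Mrps36 is no longer used: its gene is now Kgd4, a subunit of the oxoglutarate dehydrogenase complex, and is no member by the rule. Kgd4 had -1.81 ± 0.11 in TCE rats and -1.57 ± 0.12 in control rats.

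These tissue differences depend on the scale of the arrays. Centring each array on its median over all probe sets shifted the median over all genes to 0.33 in TCE rats and 0.32 in control rats, against -0.05 and -0.10 as deposited. The calls then were 40 higher and 7 lower in TCE rats (85.1% higher, against 53.3% as deposited) and 49 higher and 6 lower in control rats (89.1%, against 58.1%). Of all genes called, 65.8% were then higher in TCE rats (45.6% as deposited) and 65% in control rats (43.3%). Across the deposited, quantile-normalized and centred values, in both sets of rats, 20 members were called higher in each of the 6 fits. Lower in each were 4 (Mrpl12, Mrpl49, Mrps6 and Mrps25). The share of all genes called in all 6 was not counted. Single fits called from 67.6% to 76.1% of all genes. The 20 include Mrpl10, Mrpl40, Mrpl51 and Mrps18c, each with another probe set that pointed the other way in TCE rats. Mrpl17, Mrpl44, Mrps9, Mrps23 and Mrps33 were called in different directions by some of these fits, which differ in rats as well as in scale. Within 1 set of rats this held for Mrps23 alone, called lower in liver in control rats with quantile normalization (-0.30) and higher with centring (0.25). A measure of RNA quality, the Gapdh 3' minus 5' control probe set gap, was 1.49 ± 0.254 in TCE liver and 0.655 ± 0.189 in TCE kidney, and 0.814 ± 0.0398 in control liver and 0.971 ± 0.11 in control kidney (log2 units, SD, n = 3). With it as a covariate 10 members (13.7%) were called in TCE rats and 25 (34.2%) in control rats, where 36.7% and 53.0% of all genes were called. In TCE rats the gap was at least 1.21 in liver and at most 0.869 in kidney. Covariate and tissue are therefore partly confounded there. The median SE over members rose from 0.10 to 0.23 in TCE rats and from 0.09 to 0.14 in control rats.

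The second comparison asked what 3 days of TCE did to the members in liver. By the probe sets used, the differences were small and ran in both directions. The range was -0.43 to 0.33 log2 units, the median was -0.02, and 33 members were positive and 40 negative. Probe sets not used lay further out for Mrpl10 (-0.70), Mrpl51 (-0.51) and, higher but dim, Mrpl40 (0.60). The other probe set of Mrpl52 had -0.35, and a further one of Mrpl51 had 0.21. None of the 73 passed an adjusted p of 0.05 by limma, and none of the 10552 genes tested did (0%). At an unadjusted p under 0.05 there were 11 members, 3 higher and 8 lower in TCE liver, where 14.7% of all genes were that low. The TCE and control arrays did not overlap for 20 members, 9 higher and 11 lower, where 20.5% of all genes did not. The share at the unadjusted p is close to the background, and the share without overlap (20 of 73) is above it. Of all genes, 930 were higher and 616 lower at the unadjusted p, and 1290 higher and 877 lower without overlap. Whether the members differ from genes at large was not tested. The median over all genes was 0.03.

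The smallest p was that of Mrpl46, a large-subunit protein without a bacterial counterpart. It had 8.45, 8.57 and 8.63 log2 units in TCE liver and 8.90, 9.04 and 9.01 in control liver. Every TCE array was below every control array, with a difference of -0.43 ± 0.08 (adjusted p = 0.148). With all 12 arrays in the fit, which pools the spread over both tissues, it passed (0.0395). Mrpl17, a large-subunit protein with a bacterial counterpart, had 10.82, 11.10 and 11.03 in TCE liver and 11.41, 11.33 and 11.40 in control liver, again without overlap (-0.40 ± 0.09, adjusted p = 0.203).

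Other members without overlap that were lower in TCE liver, none past the adjusted threshold, were Mrpl15 (-0.31), Mrps33 (-0.26), Mrps6 (-0.24), Mrpl36 (-0.22), Mrps12 (-0.20) and Mrps5 (-0.18), and with larger p Mrpl42 (-0.29), Mrpl27 (-0.18) and Mrps23 (-0.10). On the higher side were Mrps26 (0.26), Mrpl37 (0.23), Mrpl58 (0.23), Mrps7 (0.19), Mrpl54 (0.19), Mrpl12 (0.17), Mrpl48 (0.14), Mrps18b (0.13) and Mrpl1 (0.10). Mrps26 had 10.39, 10.30 and 10.50 in TCE liver and 10.08, 10.18 and 10.14 in control liver. Mrps18a had -0.10 and Mrps18c -0.13 in liver.

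Beside these values, erythroid markers were lower in TCE liver without overlap for 3 of the 4 measured, with a summed level of 13.42 to 14.01 in TCE and 14.29 to 14.65 in control liver (Epb42 was near the lowest value in both). Mesenchymal markers were higher without overlap for 4 of 10, with 12.60 to 12.92 in TCE and 12.43 to 12.48 in control liver (Myh11 was near the lowest value in control liver). Their part in the values of the members was not tested. The Gapdh gap was above that of every control liver array on each TCE liver array. With it as a covariate 3 members were at an unadjusted p under 0.05, where 5.94% of all genes were that low. The median over members was then 0.15, against 0.03 over all genes. The median SE over members rose from 0.09 to 0.21 with the covariate. The count of 11 was 6 without TCE liver replicate 1 (all genes 11.5%) and 7 without TCE liver replicate 2 (11.4%). It was 6 without control liver replicate 1 (12.3%) and 5 without control liver replicate 2 (12.2%). It was 17 when dim probe sets were kept (11.4%) and 5 with the replicate block (11.9%).

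The third comparison asked the same in kidney cortex. The members again differed little: the median was 0.00, 38 were positive and 35 negative, and the median over all genes was -0.00. None of the 73 passed an adjusted p of 0.05 by limma, nor any of the 10563 genes tested (0%). At an unadjusted p under 0.05 there were 11 members, 7 higher and 4 lower in TCE kidney, where 14.8% of all genes were that low. The groups did not overlap for 16 members, 11 higher and 5 lower, where 20.1% of all genes did not.

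The smallest p was that of Mrps5, whose bacterial counterpart S5 acts in the accuracy of decoding. It had 8.31, 8.48 and 8.34 log2 units in TCE kidney and 9.04, 8.78 and 8.85 in control kidney, without overlap (-0.52 ± 0.10, adjusted p = 0.209). It was also lower in liver, with 8.98, 9.11 and 9.09 in TCE and 9.24, 9.31 and 9.17 in control liver, and was the only member lower without overlap in both tissues. Of all genes, 877 of 10552 were lower without overlap in liver and 1036 of 10563 in kidney. The share of all genes with both was not counted. The widest positive difference was that of Mrps18c (0.66 ± 0.24, adjusted p = 0.314), whose arrays overlapped.

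Others without overlap and lower in TCE kidney were Mrpl38 (-0.26), Mrpl45 (-0.23), Mrpl43 (-0.19) and Mrpl13 (-0.14). Those higher were Mrpl50 (0.35), Mrpl30 (0.30), Mrpl17 (0.29), Mrpl55 (0.25), Mrpl32 (0.24), Mrpl49 (0.23), Mrpl20 (0.22) and Mrps9 (0.19), with adjusted p from 0.252 to 0.364, and with larger p Mrpl21 (0.18), Mrpl19 (0.13) and Mrps17 (0.09). The differences of Mrps18a, Mrps18b, Mrpl12 and Mrps12 in kidney were within 0.1 of 0. Podocyte markers were higher without overlap in TCE kidney for 4 of 5 measured, with a summed level of 11.12 to 11.48 in TCE and 10.68 to 10.88 in control kidney. Of the 10 hepatocyte markers tested in kidney 8 had negative differences, with a median of -1.39, though only 1 of the 12 measured was without overlap. Their summed level was 14.12 to 14.31 in TCE and 13.69 to 14.66 in control kidney, with Apoa1, Apoa2, Tat, Serpina1 and Cps1 near the lowest value in TCE kidney and Apoa1 and Tat in control kidney. The part of these markers was not tested. The Gapdh gap was lower on average in TCE kidney. With it as a covariate 1 member was at an unadjusted p under 0.05, where 7.24% of all genes were that low. The median SE over members rose from 0.08 to 0.13 with the covariate. The count of 11 was 7 without TCE kidney replicate 1 (all genes 8.7%), without TCE kidney replicate 3 (11.4%) or without control kidney replicate 1 (10.3%).

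**Figure D3:**
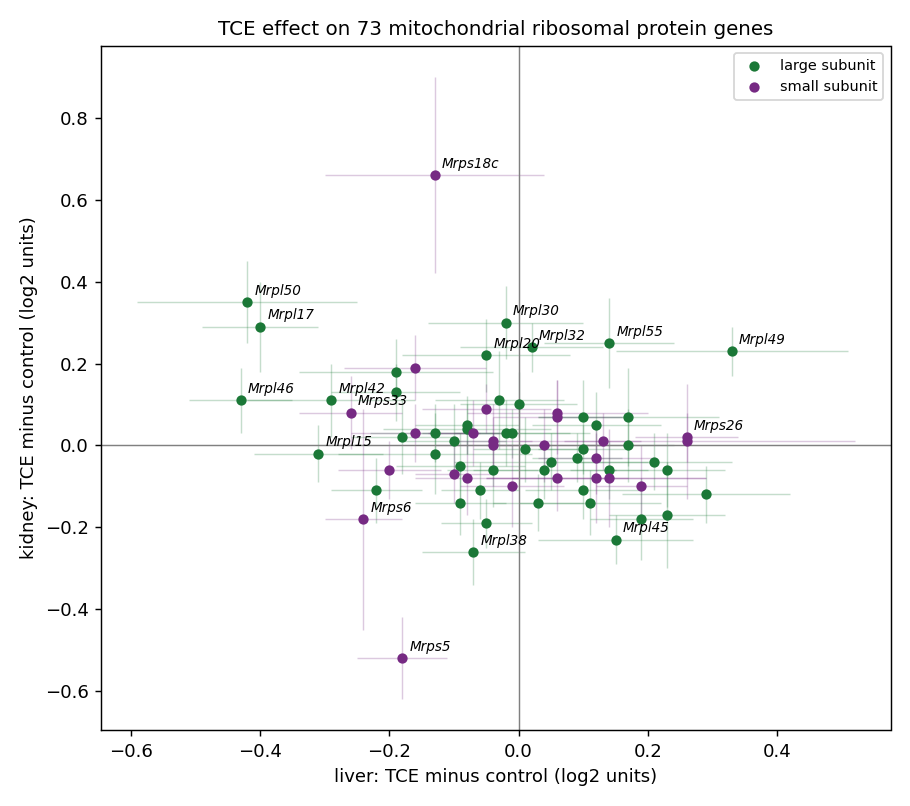
TCE minus control in liver (x axis) against TCE minus control in kidney (y axis), both in log2 units, for the 73 members, coloured by subunit, with limma standard errors as bars. No member passed an adjusted p of 0.05 in either tissue; Mrpl17, Mrpl46 and Mrpl50 lie at the upper left, and Mrps5 is the lowest.

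The fourth comparison asked whether the TCE effect differed between the tissues (liver effect minus kidney effect). None of the 73 members passed by limma, and 57 of the 10652 genes tested did (0.535%). The 12 hepatocyte markers had a median of 1.19 in this comparison, with 0 called. Of the other marker lists, 1 of 10 mesenchymal markers was called positive. Called negative were 1 of 3 erythroid and 1 of 5 podocyte markers tested. The part of these markers was not tested. At an unadjusted p under 0.05 there were 15 members, 6 positive and 9 negative, where 17.5% of all genes were that low. The 3 with the smallest p were Mrpl17 (-0.69 ± 0.15, adjusted p = 0.0837), Mrpl46 (-0.54 ± 0.12, 0.0837) and Mrpl50 (-0.77 ± 0.21, 0.118). By the probe sets used, Mrpl17 was the only member lower without overlap in TCE liver and higher without overlap in TCE kidney. Of all genes, 877 of 10552 were lower without overlap in liver and 1085 of 10563 higher without overlap in kidney. The share of all genes with both was not counted. In kidney Mrpl17 had 11.43, 11.65 and 11.44 in TCE and 11.25, 11.35 and 11.05 in control arrays. A probe set of Mrpl51 that was not used had the same pattern, with -0.51 in liver and 0.39 in kidney. Mrpl50 had 10.01, 10.26 and 10.35 in TCE liver and 10.85, 10.69 and 10.33 in control liver, which overlapped, and 11.10, 11.05 and 10.99 in TCE kidney and 10.66, 10.89 and 10.54 in control kidney, which did not. Its second probe set gave -0.21 in liver and -0.07 in kidney.

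The next were Mrpl14 (0.41), Mrpl54 (0.37), Mrps5 (0.34), Mrps33 (-0.35) and Mrps18c (-0.78), with adjusted p from 0.203 to 0.232. With a trend and robust variances Mrpl17 passed (adjusted p = 0.046). The count of 15 was 8 without TCE liver replicate 1 (all genes 15%), 5 without TCE kidney replicate 3 (14.5%) and 7 without control kidney replicate 1 (14.4%). With the Gapdh gap as a covariate it was 1, where 5.33% of all genes were that low. The median SE over members rose from 0.14 to 0.28 with the covariate. The 57 genes called were 0 without TCE kidney replicate 1 and 108 without TCE kidney replicate 2.

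**Figure D4:**
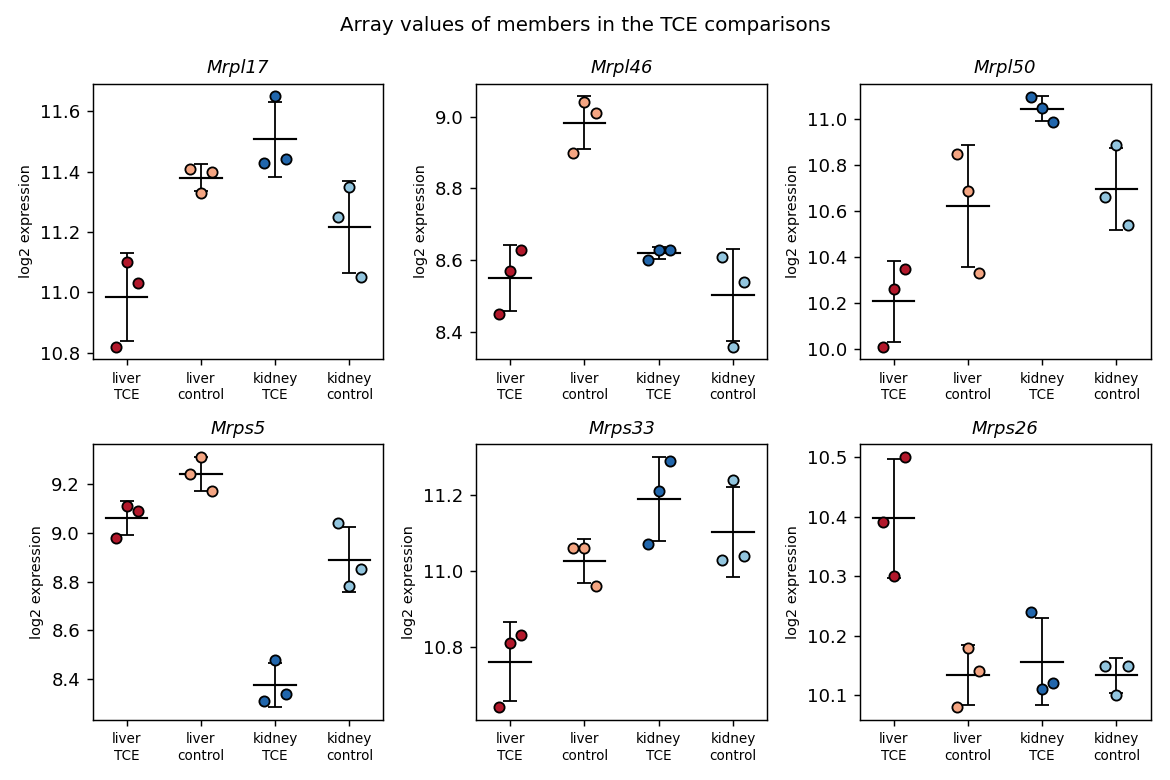
Log2 expression (y axis) of 6 members on each array of TCE liver, control liver, TCE kidney and control kidney; points are arrays, and the line and bar are the mean and SD of 3. Mrpl17 and Mrpl46 are lower on every TCE liver array than on the control liver arrays, and Mrps5 is lower on every TCE array of both tissues.

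Genes that work with this ribosome were followed as lists. None of their members passed the adjusted threshold by limma for TCE in liver, in kidney or between the tissues. Their calls between the tissues stand beside those of all genes tested, of which 67.6% were called in TCE rats (30.8% higher in liver) and 68.6% in control rats (29.7% higher). The translation factors had 8 called of 14 in TCE rats (7 higher, 1 lower in liver) and 9 of 14 in control rats (8 higher, 1 lower). Tsfm, the exchange factor of the elongation factor Tu, was higher in liver (0.74 and 0.78, TCE rats first), and Tufm, that elongation factor, was lower (-0.25 and -0.34). Of the mitochondrial tRNA synthetases and their helpers 11 of 18 were called in TCE rats (9 higher, 2 lower) and 12 of 18 in control rats (9 higher, 3 lower). Cars2 had 1.89 and 1.61, and Qrsl1, of the amidotransferase that makes glutaminyl-tRNA, had -0.77 and -0.93. Of the assembly factors 14 of 25 were called in TCE rats (11 higher, 3 lower) and 15 of 25 in control rats (11 higher, 4 lower). Dhx30, an RNA helicase of ribosome assembly, had -1.48 and -1.64, and Rpusd3, a pseudouridine synthase-like protein, had 1.14 and 1.11.

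Of 5 subunits with other symbols 3 were called in each set of rats, 2 higher and 1 lower in liver: Dap3 had 0.48 and 0.39, and Ptcd3 -0.39 and -0.50. Of the mitochondrial transcription and replication list 9 of 14 were called in TCE rats (8 higher, 1 lower) and 10 of 14 in control rats (8 higher, 2 lower). Polg, the mitochondrial DNA polymerase, had 2.82 and 2.55, and Twnk, the replicative helicase, 2.25 and 1.59. Of the regulators of mitochondrial biogenesis 5 of 9 were called in each set of rats, 1 higher and 4 lower. Ppargc1a, a coactivator of that programme, averaged 3.41 ± 0.21 in liver and 10.03 ± 0.30 in kidney of TCE rats, and 5.28 ± 1.90 in liver and 10.10 ± 0.22 in kidney of control rats (SD, n = 3). Ppargc1b had -1.99 and -2.27. Of the 2 measured genes of the mitochondrial genome, COX2 was lower in liver (-0.48 and -0.66). Cytosolic ribosomal proteins, given side by side, had 25 of 40 called in TCE rats (1 higher, 24 lower) and 26 of 39 in control rats (2 higher, 24 lower), with medians of -0.29 and -0.31. All list values are on the deposited scale and were not refitted on another. Centring moved the median over all genes from -0.05 to 0.33 in TCE rats and from -0.10 to 0.32 in control rats. The direction of differences this small, that of Tufm included, therefore depends on the scale.

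Some members lie beside the start of another gene. The RefSeq table of GRCr8 was searched for protein-coding neighbours on the other strand that start within 1000 bases of a gene's start, on either side. Such a neighbour was found for 24 of the 59 members with a known strand (40.7%), against 13.7% of 11502 genes, a description without a test. Some of these neighbours overlap the member, among them Ndufs6, Ndufb5 and Guk1, so not all run away from it. The neighbours include another member (Mrpl46 with Mrps11) and subunits of respiratory complex I (Mrpl36 with Ndufs6, Mrpl47 with Ndufb5). Of 19 entries in which both genes were measured, 9 had both called between control liver and control kidney. Mrpl46 with Mrps11 gives an entry from each side. Of all single genes 68.6% were called in that comparison, and pairs at large were not counted. Of the 9, 3 had the same direction. Mrpl36 and Ndufs6 had -0.53 and -0.56, Mrpl47 and Ndufb5 -0.56 and -0.49, and Mrpl30 and Mitd1 0.79 and 0.92. The rest of the 9 went in opposite directions. Mrpl52 had 0.96 and Slc7a7, an amino acid transporter subunit, -4.97. Mrpl40 and Hira had 0.70 and -1.18, Mrpl41 and Pnpla7 -0.28 and 2.30, and Mrpl54 and Apba3 -0.50 and 1.75. Mrpl55 and Guk1 had 0.57 and -0.50, and Mrps18b and Ppp1r10 0.32 and -1.43. For 21 members the table lists a pseudogene, so that probes may match more than 1 locus. The 18 members with several probe sets had 24 others, of which 12 had a mean over 4, and 9 of these 12 had the same tissue direction in control rats as the one used. The exceptions were Mrpl40, Mrpl50 and Mrps18c. In TCE rats the exceptions were Mrpl10, Mrpl40, 1 probe set of Mrpl51, Mrps14 and Mrps18c.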

How the data were processed

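Total RNA of 12 tissue samples was measured on Affymetrix Rat Genome 230 2.0 arrays. The authors deposited log2 expression values, 31099 probe sets by 12 arrays; the values' range shows the log2 scale. The submitters' processing notes name affy and limma, with versions and normalization not given in the sources used here. Such values share a lowest value of 2.17, which compresses the differences of dim probe sets. Array medians were 3.51 to 3.96. Precision is limited by the 3 arrays a group.

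Names are those of the platform annotation: 1 symbol for 20826 probe sets (14217 genes), several for 436 and none for 9780. Tests left out the 57 control probe sets. Of the singly named, 20758 matched the RefSeq table of GRCr8, including all 97 of the members. Genes entered a fit if their mean in it lay above the 40th percentile of probe sets. Each fit was made in limma 3.58.1 under R 4.3.3 (lmFit, eBayes, two-sided, Benjamini-Hochberg over all genes, threshold 0.05), with no covariates, and the fits were tested on simulated data. SE is limma's moderated standard error. Figures used matplotlib 3.10.9 in Python 3.11.15.

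Groups came from sample titles. Replicate numbers are shared by the groups but no label ties them to a rat. The alternatives were no filter, a 60th percentile filter, averaging the probe sets of a gene, quantile normalization, median centring, trended robust variances, array weights, a replicate block, the Gapdh gap as covariate, all 12 arrays, and each array left out.

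The members and lists were chosen with earlier results of these data known. Named members were the 10 largest called differences in each direction, or, with fewer than 5 called, the 8 smallest p in each direction without overlap (for the difference between tissues the 8 smallest p), the Mrps18 genes, Mrpl12, Mrps12 and Mrps36, and for each other list examples of the 2 largest in each direction. Slc5a3, the second probe sets and the genomic neighbours were named after values were seen. The NRF1 and YY1 motifs were shortened by 1 base after a first search with longer letters. Protein sequences were not used here.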

Additional observations from a re-analysis of the deposited data

Results flagged for a closer look

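Mrpl17 stood on opposite sides of its controls in the 2 tissues: it was lower on all 3 TCE liver arrays than on any control liver array (-0.40) and higher on all 3 TCE kidney arrays than on any control kidney array (0.29). The difference between the effects was tested and was -0.69 ± 0.15 log2 units, with a limma adjusted p of 0.0837 over all genes, so it did not pass the threshold; with a trend and robust variances the adjusted p was 0.046. The share of all genes with such opposite shifts without overlap was not counted, so this pattern is not shown to be rare. Mrpl17 has 1 probe set, and a pseudogene is listed for it.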

How the results depend on the processing

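The count of members called was 0 for TCE in liver, in kidney and between the tissues without any single array. The exceptions among the other alternatives were 1 called in liver with all 12 arrays in the fit (Mrpl46) and 1 called between the tissues with a trend and robust variances (Mrpl17). For liver against kidney, 38 to 44 members were called in TCE rats and 38 to 41 in control rats when 1 array was left out. With the Gapdh gap as a covariate 10 were called in TCE rats and 25 in control rats, where 36.7% and 53.0% of all genes were called. The median SE over members was then 0.23 and 0.14, against 0.10 and 0.09 without it. The cause of the lower counts was not tested. With the replicate block the counts were 0 for TCE in liver, 0 in kidney and 0 between the tissues, 40 in TCE rats and 38 in control rats. The replicate numbers were not taken to pair the samples, since no label ties them to a rat. Liver and kidney samples of the same number and treatment correlated in their deviations by -0.00702 to 0.08. In control rats each of the 3 correlated best with its own number (0.0481 to 0.08, against -0.0577 to -0.00727 for other numbers), a hint from the data and not the design. In TCE rats only 1 of the 3 did (-0.00702 to 0.0642, against -0.0697 to 0.0529 for other numbers).

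Some values turned sign. Under the Gapdh covariate the effect in liver was -0.00 ± 0.18 SE for Mrpl54, 0.18 ± 0.18 for Mrps18a and 0.13 ± 0.44 for Mrps18c. The kidney effect of Mrps12 was 0.04 ± 0.10. The difference between tissues was -0.08 ± 0.23 for Mrpl54 (0.37 without the covariate) and -0.10 ± 0.23 for Mrpl12. Quantile normalization gave kidney effects of -0.00 for Mrps18a, -0.02 for Mrps18b and -0.03 for Mrpl12, and array weights gave -0.03, -0.01 and -0.04 for the same genes. Leaving out 1 array gave liver effects of -0.27 to 0.02 for Mrps18c (above 0 without control liver replicate 3). It gave kidney effects of -0.05 to 0.07 for Mrps18a, -0.04 to 0.05 for Mrps18b and -0.06 to 0.04 for Mrpl12. Averaging the probe sets of a gene gave Mrpl40 -0.11 in TCE rats and -0.23 in control rats between liver and kidney, against calls of 0.57 and 0.70 by the probe set used, and centring gave Mrps18a 0.14 in TCE rats and 0.28 in control rats. All genes called for TCE in liver numbered 17 without the filter and 138 with all 12 arrays, against 0. In kidney they numbered 2 without the filter, 1 with the 60th percentile filter, 1 with robust trended variances and 10 with all 12 arrays, against 0. Between the tissues they numbered 123 with array weights, 9 with the replicate block and 0 with the Gapdh gap, against 57. With the Gapdh gap 3906 genes were called between TCE liver and TCE kidney, against 7194.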
